A study of Mus musculus with 11 samples.

Results

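The GIMAP genes encode the GTPases of immunity associated proteins, a family of GTP-binding proteins found mainly in lymphocytes. In the mouse the family lies in 1 cluster on chromosome 6. All of its 8 members in the deposited counts are described here, namely Gimap1, Gimap3, Gimap4, Gimap5, Gimap6, Gimap7, Gimap8 and Gimap9, out of 32469 gene symbols. They were taken by name, and the rule used no values. The counts are bulk RNA-seq reads per gene from precursor exhausted CD8 T cells, the self-renewing cells that feed the exhausted T cell pool, sorted from Lewis lung carcinoma (LLC) tumors of 11 mice. LLC is an established cell line from a lung carcinoma of this mouse strain. All mice were wild-type (WT) C57BL/6 animals, bought as 8-week-old females according to the methods of the study, and each carried an LLC tumor in either flank, grown from 500000 cells inoculated under the skin. The untreated group had 5 mice (libraries 1 to 5). The aLAG3 group had 6 mice (libraries 6 to 11) that received 200 µg of anti-LAG-3 (clone C9B7W), an antibody that blocks the inhibitory receptor LAG-3, by intraperitoneal injection on day 14 and again on day 16. By the methods of the study, the left tumor of mice in both groups was cut out on day 14, when dosing began. According to the study, the sequenced cells came from tumors taken from both groups after the second dose. Cells of both groups were sorted as CD8+PD-1+Ly108+TIM-3-, with a further surface gate. By the labels the groups differ in the antibody, and no control antibody is named for the untreated mice. The comparison asks whether LAG-3 blockade changed the level of GIMAP transcripts in these cells.

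GIMAP proteins bind GTP through a shared domain, and several of them sit on intracellular membranes. They are best known for their part in keeping lymphocytes alive. Loss of Gimap5 or Gimap1 depletes peripheral T cells in rodents, while Gimap4 has been described as a protein that speeds T cell death. Resting T cells express the family at high level, and several members fall on activation.

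The untreated libraries held 317449 to 1271063 counts and the aLAG3 libraries 313524 to 1901374. Depth followed the RNABC number in the library titles, read here as the barcode of the PCR primers that the study lists. It is called the primer barcode, or barcode, below. Barcode 9 marked 6 libraries, 3 of each group, with the highest totals. Barcode 8 marked untreated library 4 and aLAG3 libraries 8, 10 and 11, and barcode 10 marked untreated library 2. A second number in the titles was shared by untreated libraries 2 and 3 and aLAG3 library 10, and another by untreated libraries 4 and 5, while every other library had a number of its own. The summed CPM (counts scaled to a common library size, here by total counts) of 7 CD8 T cell genes was 6210 to 6688 in untreated and 6120 to 6740 in aLAG3 libraries. Of the genes of the sort, Cd8a was at 1021 to 1246 CPM, Pdcd1 (PD-1) at 466 to 754 CPM and Slamf6 (Ly108) at 70.9 to 116 CPM, while Havcr2 (TIM-3) had 0 to 7 counts in a library. Lag3 itself was at 395 to 538 CPM. Genes of other cells were low. CD4 T cell genes summed to 0 to 14.7 CPM in untreated and 0 to 19.1 in aLAG3 libraries, and B cell genes to 0 to 4.91 and 0 to 9.57. NK cell genes summed to 9.45 to 33.8 and 15.3 to 26.6 CPM, myeloid genes, with S100a8 and S100a9 at 0, to 18.9 to 53.0 and 23.6 to 150, and tumor and stromal genes to 2.45 to 34.7 and 0 to 19.2. Erythroid and platelet genes summed to 0 to 5.30 and 0 to 35.1 CPM. The endothelial list summed to 137 to 206 and 150 to 214 CPM, of which Pecam1, which T cells also express, held 1534 counts, while Cdh5 had 5 and Tek 0 over all libraries. The aLAG3 library 10 had the highest CD4, B, myeloid, endothelial and erythroid sums of all 11 libraries, and also the highest CD8 T cell sum (6740). It had the fewest counts (313524), so that 3 counts made 9.57 CPM, as much as its B cell sum.

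The GTP-binding site of each member is written in its coding sequence. The P-loop, also called Walker A, is the loop that holds the phosphates of the nucleotide, and a search of each member's longest annotated coding sequence (GENCODE M21) for codons of this motif in frame found it in 8 of 8 members, 10 times in all. The same search found the motif in 4.29% of 21850 protein-coding genes. The windows are printed because they are the feature that joins the 8 members and shows which are alike. Capitals mark the 24 bases of the motif, with 9 bases on either side in lower case.
Gimap1: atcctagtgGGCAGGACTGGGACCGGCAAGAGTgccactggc
Gimap3: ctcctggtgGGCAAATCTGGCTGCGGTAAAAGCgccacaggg
Gimap5: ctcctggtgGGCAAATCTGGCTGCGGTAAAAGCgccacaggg
Gimap4: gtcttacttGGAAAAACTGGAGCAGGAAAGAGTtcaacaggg
Gimap6: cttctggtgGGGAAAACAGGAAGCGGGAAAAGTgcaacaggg
Gimap7: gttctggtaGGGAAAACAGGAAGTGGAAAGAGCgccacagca
Gimap9: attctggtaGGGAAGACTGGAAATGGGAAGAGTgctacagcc
Gimap8, first: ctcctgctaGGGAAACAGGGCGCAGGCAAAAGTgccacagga
Gimap8, second: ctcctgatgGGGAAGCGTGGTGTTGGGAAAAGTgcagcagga
Gimap8, last: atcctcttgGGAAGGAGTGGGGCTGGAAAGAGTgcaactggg
Gimap8 held the motif 3 times, at coding bases 163 to 186, 871 to 894 and 1444 to 1467, in a coding sequence of 2064 bases. The other members held it once, in coding sequences of 873 (Gimap9) to 984 bases (Gimap4). The windows of Gimap3 and Gimap5 were identical in every base.

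Gimap3 and Gimap5 were also the closest pair over the whole coding sequence, with 88.9% identity over 899 aligned bases, whereas the other 20 pairs without Gimap8 had 55.8% to 65.6%. The longest stretch that both share without a difference ran for 140 bases, from coding base 175 to 314 of Gimap3 and from 187 to 326 of Gimap5. It is printed because reads that lie wholly inside it cannot tell the 2 genes apart. Capitals mark the shared stretch.
Gimap3: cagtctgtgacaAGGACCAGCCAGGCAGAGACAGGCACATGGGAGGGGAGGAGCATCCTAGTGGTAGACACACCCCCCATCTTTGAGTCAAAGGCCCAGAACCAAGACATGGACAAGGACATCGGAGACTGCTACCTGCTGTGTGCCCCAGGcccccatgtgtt
Gimap5: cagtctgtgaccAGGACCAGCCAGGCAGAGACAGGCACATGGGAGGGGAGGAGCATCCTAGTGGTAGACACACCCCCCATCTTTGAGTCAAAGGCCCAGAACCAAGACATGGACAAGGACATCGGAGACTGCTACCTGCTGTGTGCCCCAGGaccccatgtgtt
Of the distinct 50-base stretches of the Gimap3 transcripts, 7.52% also occur in Gimap5, and of those of Gimap5, 4.53% occur in Gimap3. For Gimap1, 32.4% of the stretches occur on the opposite strand in Gimap1os, an antisense transcript over the same gene. Gm28053, an annotated readthrough gene on the plus strand over Gimap7, Gimap1 and Gimap5, holds 4.78% of the Gimap1 stretches, 2.50% of those of Gimap5 and 1.39% of those of Gimap7. The counting of reads with more than 1 possible gene, and the use of strand, are not given in the sources used here, so the levels of Gimap1, Gimap3 and Gimap5 are uncertain. Gimap8, Gimap9 and Gimap4 shared no such stretch with another gene, and Gimap6 shared 0.170%.

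The 8 members lie on chromosome 6 of GRCm38, from 48647234 to 48770851, a span of 124 kb. In order along the chromosome they are Gimap8 (48647234 to 48660875, plus strand), Gimap9 (48676129 to 48679114, plus), Gimap4 (48684549 to 48692060, plus), Gimap6 (48701582 to 48708225, minus), Gimap7 (48718621 to 48724636, plus), Gimap1 (48739054 to 48743795, plus), Gimap5 (48746197 to 48754210, plus) and Gimap3 (48764464 to 48770851, minus). Each of the 8 members passed the filter on low counts (17.7 CPM in 5 or more libraries), and did so through its level in both groups. Levels of the members were higher than those of the protein-coding genes around the cluster. Per kb of the longest annotated transcript, the members were at 40.2 to 308 CPM on average over the 11 libraries, scaled by total counts. Of 27 other genes annotated within 200 kb on either side of the cluster, 17 had a row in the table, and the 11 protein-coding genes among them were at 0 to 4.70 CPM per kb, with Lrrc61 the highest, named after its value was seen. The filter was passed by 2 of the 17, both pseudogenes. Gm10243, a processed pseudogene of 333 bases, was at 230 CPM per kb, and Zfp862-ps at 4.01. Within the cluster, the protein-coding Gm28053 had 212 counts over the 11 libraries (41.96 CPM per kb, inside the range of the members) and Gimap1os 268 (14.9 CPM per kb), and both share sequence with members. The 2 lincRNA genes between Gimap5 and Gimap3 were low, with Gm44226 at 0.956 and 4833403J16Rik at 1.26 CPM per kb, named after their values were seen. For the neighbours that passed the filter the log2 fold change from untreated to aLAG3 was -0.030 for Gm10243, 0.40 for Zfp862-ps, 0.25 for Gm28053 and 0.15 for Gimap1os, with an adjusted p of 0.999 for each in the edgeR fit.

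**Figure D1:**
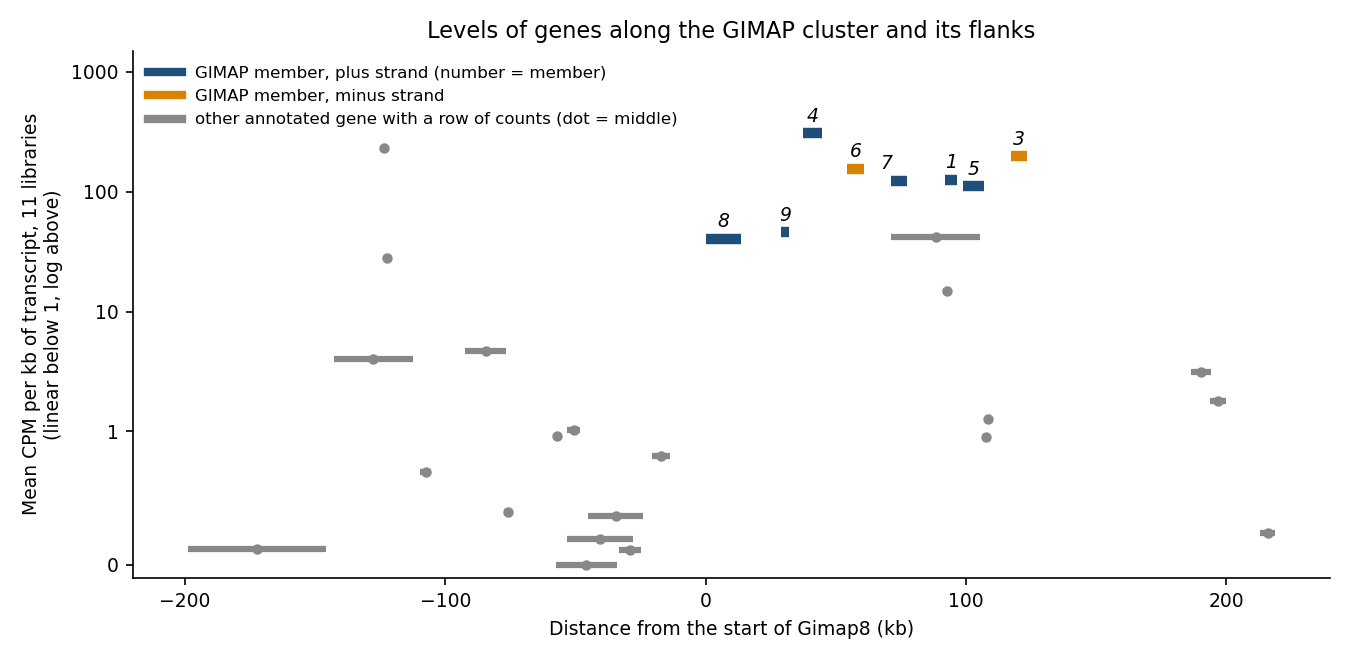
Mean CPM over the 11 libraries, scaled by total counts, per kb of the longest annotated transcript (vertical axis, linear below 1 and logarithmic above), against distance from the start of Gimap8 in kb (horizontal axis), with a bar for the extent of each gene that has a row of counts. The 8 GIMAP members, numbered, lie between 40.2 and 308 CPM per kb, and the only flanking gene at such a level is the short pseudogene Gm10243 at 230.

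The members together held 0.192% to 0.259% of the counts of a library. Levels were compared between members as CPM (from here on normalized by TMM, which adjusts library sizes for composition) per kb of the longest annotated transcript. Gimap4 was the highest member, with a median of 318 CPM per kb over the 11 libraries and a range of 225 to 378. Gimap3 followed at 203 (159 to 256), Gimap6 at 165 (112 to 193), Gimap1 at 134 (81.9 to 162), Gimap7 at 130 (98.9 to 169) and Gimap5 at 115 (95.3 to 136). The lowest levels per kb were those of Gimap9 at 50.4 (29.6 to 65.6) and Gimap8 at 41.4 (36.4 to 52.2). Gimap5 exceeded Gimap9 in 11 of 11 libraries, with ranges that did not overlap. All other neighbours in the order had overlapping ranges. Gimap4 exceeded Gimap3, Gimap3 exceeded Gimap6 and Gimap6 exceeded Gimap1 in 10 of 11 libraries each, while Gimap9 exceeded Gimap8 in 8, Gimap7 exceeded Gimap5 in 7 and Gimap1 exceeded Gimap7 in 4, so that the middle and the end of the order were not resolved by library. The order depends on the length used. Without division by length it was Gimap4, Gimap6, Gimap3, Gimap5, Gimap1, Gimap7, Gimap8 and Gimap9. In that order each member exceeded the next in 9 to 11 of 11 libraries, and Gimap8 exceeded Gimap9 in all 11. By the methods of the study, cDNA was made on oligo-dT beads, and the barcoded primer bound an adapter at its other end, before fragmentation. Fragments that keep the barcode then hold the start of a transcript, so counts may not grow with its length. The order per kb is therefore uncertain.

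No GIMAP gene rose or fell with LAG-3 blockade by the test used. None of the 8 members passed the test over all 6949 genes (edgeR's quasi-likelihood test, adjusted by Benjamini-Hochberg, adjusted p = 0.999 for each), and 0% of all genes tested did. The log2 fold change (aLAG3 over untreated) was below 0 in 6 of 8 members, against 48.9% of all genes, but in 2 of 8 without untreated library 5 and in 3 of 8 with the libraries of barcode 9 alone. Its median was -0.036 over the members and 0.0045 over all genes, and the 95% confidence intervals of the members ran from 0.780 to 1.44 times the untreated level. Without an adjustment, 1 member had a p under 0.05, Gimap4, which was lower, and so had 1.99% of all genes in that direction, against 1.74% that were higher and 3.73% in either direction. In no member were the groups free of overlap, against 0.475% of all genes. In bulk samples, fewer cells that express a gene and less RNA per cell cannot be told apart. Each library came from 1 mouse, so the p-values cover the spread between mice.

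Gimap5 and Gimap1 are among the members tied to lymphocyte survival. Gimap5, a protein of lysosomal membranes, had 248, 267, 300, 261 and 317 CPM in untreated libraries 1 to 5, and a lowest value of 222, a median of 262 and a highest value of 314 CPM in the aLAG3 libraries. The groups overlapped, with aLAG3 libraries 8 and 11 below every untreated value and 3 of 6 aLAG3 libraries above the untreated median. The untreated mean was 279 ± 28.7 CPM (SD, n = 5) and the aLAG3 mean 267 ± 34.4 CPM (SD, n = 6). On the log2 scale the fold change was -0.040 (standard error 0.10). Its 95% confidence interval on the linear scale ran from 0.841 to 1.12 times the untreated level.

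Gimap1, needed for the survival of mature T and B cells, had 185, 214, 206, 261 and 259 CPM in untreated libraries 1 to 5. In the aLAG3 libraries it ran from 132 through a median of 220 to 233 CPM, and 4 of 6 were above the untreated median. The lowest of all 11 values was that of aLAG3 library 8, and the other aLAG3 libraries lay within the untreated range. The log2 fold change was -0.10 (standard error 0.12, 225 ± 33.8 CPM, SD, n = 5, to 205 ± 37.6 CPM, SD, n = 6), with an interval of 0.782 to 1.11 times the untreated level. It was -0.020 without aLAG3 library 8.

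Gimap3, the close relative of Gimap5, had 422, 465, 400, 417 and 550 CPM in untreated libraries 1 to 5, and 340 to 487 CPM with a median of 455 in the aLAG3 libraries. The highest value was in untreated library 5 and the lowest in aLAG3 library 9, and 4 of 6 aLAG3 libraries were above the untreated median. Untreated mice had a mean of 451 ± 60.1 CPM (SD, n = 5) and aLAG3 mice a mean of 440 ± 55.2 CPM (SD, n = 6). On the log2 scale the fold change was -0.039 (standard error 0.098), with an interval of 0.846 to 1.12 times the untreated level. The difference of the mean log2 CPM was -0.15 within barcode 9 and 0.16 within barcode 8, which had 1 untreated library. Over the 11 libraries the deviations of Gimap3 and Gimap5 from their group means had an r of 0.24.

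Gimap4, linked to T cell death, was the only member with an unadjusted p under 0.05. Its values were 568, 672, 651, 563 and 683 CPM in untreated libraries 1 to 5, and 406, 569 and 606 CPM for the lowest, median and highest aLAG3 library. None of the 6 aLAG3 libraries reached the untreated median, yet 5 of them lay within 559 to 606 CPM, where untreated libraries 1 and 4 also lay. The untreated mean was 628 ± 57.6 CPM (SD, n = 5) and that after LAG-3 blockade 547 ± 71.2 CPM (SD, n = 6). The log2 fold change was -0.18 (standard error 0.087), an interval of 0.780 to 0.999 times the untreated level, and the unadjusted p of edgeR's quasi-likelihood test was 0.0491, the 253rd smallest of 6949. It did not pass the adjusted test. Without aLAG3 library 10, which had the lowest Gimap4 value and the highest myeloid sum (150 CPM), the log2 fold change was -0.12 and the unadjusted p was 0.121. Within primer barcode 9, with 3 libraries of each group, the difference of the mean log2 CPM was -0.12, and within barcode 8, with 1 untreated and 3 aLAG3 libraries, it was -0.15. With primer barcode as a covariate the edgeR fit gave -0.12 with an unadjusted p of 0.180, and with barcode 9 alone -0.13 with 0.177. The part of depth and of other cells in this difference was not tested.

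Gimap6, which binds the autophagy protein Gabarapl2, had 489, 485, 518, 597 and 540 CPM in untreated libraries 1 to 5. In the aLAG3 libraries it ran from 355 through a median of 532 to 613 CPM. The lowest value of all 11 libraries was again that of aLAG3 library 10, and the other 5 aLAG3 libraries, at 520 or more, were above the untreated median. The log2 fold change was -0.0015 (standard error 0.097, 526 ± 45.6 CPM, SD, n = 5, to 517 ± 86.4 CPM, SD, n = 6), with an interval of 0.870 to 1.15 times the untreated level. It was 0.068 without aLAG3 library 10. The difference of the mean log2 CPM was 0.12 within barcode 9 and -0.36 within barcode 8. Barcode 8 holds aLAG3 library 10 and only 1 untreated library, number 4, which had the highest untreated value (597 CPM).

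Gimap7, whose GTP hydrolysis is stimulated when the protein pairs with a GIMAP partner, had 172, 198, 166, 125 and 165 CPM in untreated libraries 1 to 5 and 135 to 215 CPM with a median of 161 in the aLAG3 libraries. The group means were the same to 3 digits, 165 ± 25.9 CPM (SD, n = 5) for untreated mice and 165 ± 30.5 CPM (SD, n = 6) for aLAG3 mice. The fitted log2 fold change was 0.028 (standard error 0.13), with an interval of 0.852 to 1.22 times the untreated level. It was 0.13 with primer barcode as a covariate and 0.095 with barcode 9 alone.

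Gimap8, the long member with 3 P-loops, had 126, 125, 131, 136 and 165 CPM in untreated libraries 1 to 5 and 115 to 145 CPM with a median of 131 in the aLAG3 libraries. Its highest value was in untreated library 5. Its log2 fold change was -0.032 (standard error 0.11, 137 ± 16.5 CPM, SD, n = 5, to 131 ± 9.96 CPM, SD, n = 6), with an interval of 0.833 to 1.15 times the untreated level.

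Gimap9, which drew the fewest reads of the family, had 57.5, 72.5, 68.5, 40.98 and 76.9 CPM in untreated libraries 1 to 5 and 44.0 to 90.8 CPM with a median of 74.6 in the aLAG3 libraries. The lowest values were in untreated library 4, aLAG3 library 10 and aLAG3 library 8 (51.9 CPM), all with primer barcode 8, and the highest was in aLAG3 library 11 of the same barcode. Its log2 fold change was 0.17 (standard error 0.17, 63.3 ± 14.4 CPM, SD, n = 5, to 69.3 ± 18.0 CPM, SD, n = 6), and its interval, 0.884 to 1.44 times the untreated level, was the widest of the family.

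**Figure D2:**
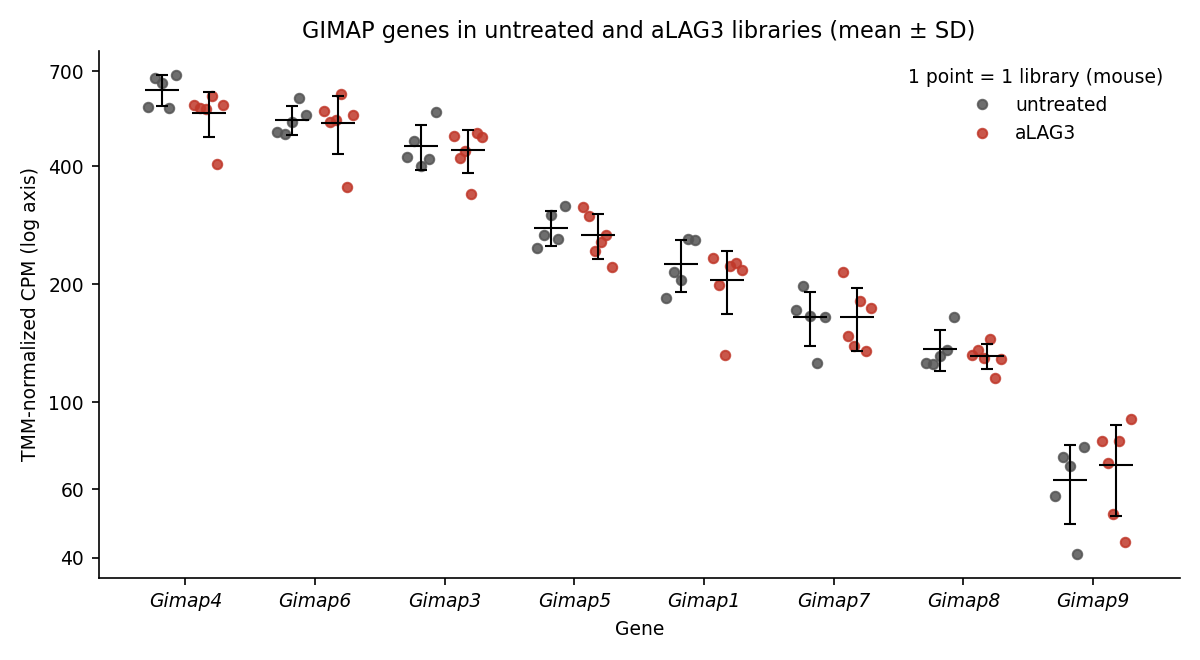
TMM-normalized CPM (logarithmic vertical axis) of the 8 GIMAP genes, with a point for each library (gray, 5 untreated; red, 6 aLAG3) and a horizontal bar with whiskers for the mean ± SD of the group. The groups overlap in every gene, and aLAG3 library 10 is the low point of Gimap4 (406 CPM) and Gimap6 (355 CPM).

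**Figure D3:**
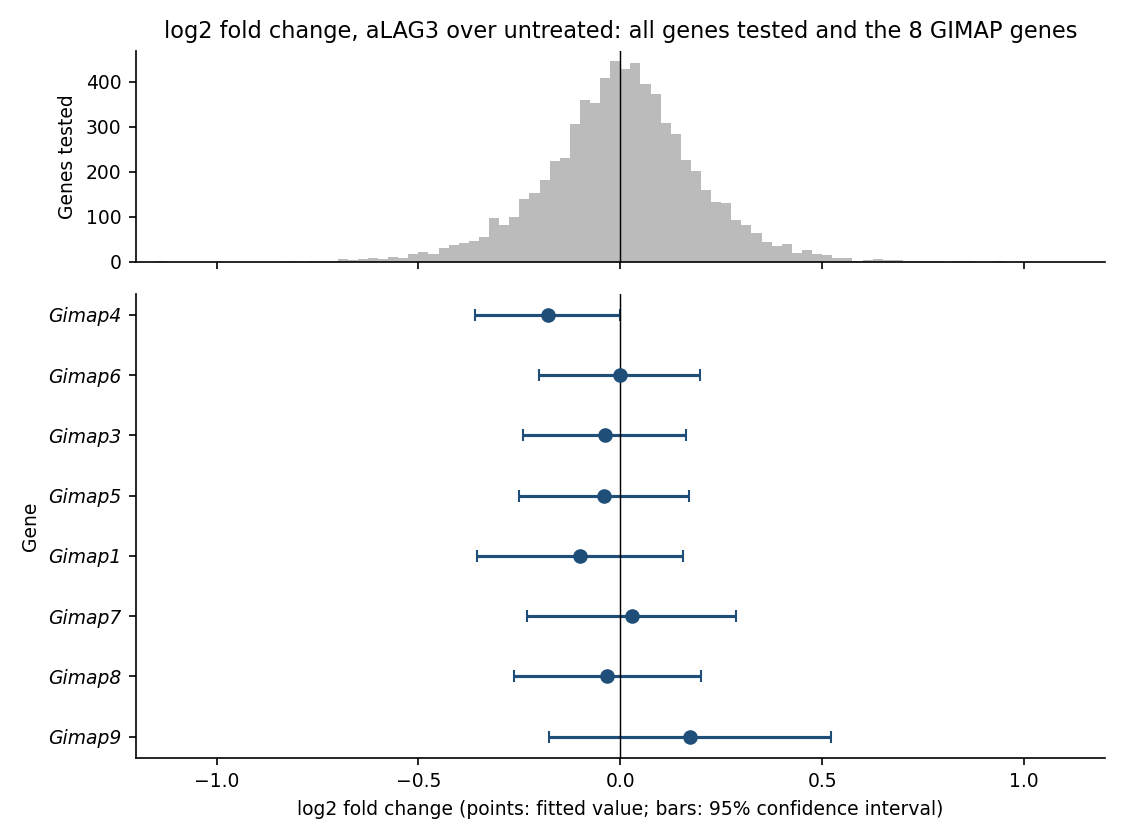
Histogram of the log2 fold change (aLAG3 over untreated) of the 6949 genes tested (top) and the value of each GIMAP gene with its 95% confidence interval (bottom) on the same horizontal axis. The 8 values lie between -0.18 and 0.17, and the interval of each member but Gimap4 spans 0.

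Summed over the 8 members, the level was 2267, 2498, 2440, 2402 and 2756 CPM in untreated libraries 1 to 5. The aLAG3 libraries ran from 2036 (library 10) through 2388 to 2580 CPM (library 6). The mean sum was 2473 ± 180 CPM (SD, n = 5) for untreated mice and 2342 ± 191 CPM (SD, n = 6) for aLAG3 mice. The mean log2 sum was different by -0.080 in the aLAG3 group. The standard deviation of single libraries within groups was 0.11, which is not the error of that difference. The difference in the mean log2 sum was -0.013 within barcode 9 and -0.11 within barcode 8, which had 1 untreated library. Gimap4 held 24.3% of the summed CPM, Gimap6 21.7% and Gimap3 18.6%.

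Between mice the members did not move as a block. The deviations of log2 CPM from the group mean had a positive correlation in 25 of 28 pairs of members over the 11 libraries, but the median r was 0.21 and 6 pairs were above 0.5. These are descriptions of libraries that share depth and cell makeup. The pairs above 0.5 were Gimap4 with Gimap9 (r = 0.82), Gimap7 with Gimap9 (0.81), Gimap4 with Gimap6 (0.73), Gimap6 with Gimap8 (0.65), Gimap4 with Gimap8 (0.63) and Gimap4 with Gimap7 (0.59). The relation of Gimap4 with Gimap6 rested on aLAG3 library 10, since without it r was 0.16, whereas Gimap4 with Gimap9 kept 0.76 and Gimap7 with Gimap9 kept 0.78. Gimap3 had an r of -0.42 to Gimap6 and a highest r of 0.24, to Gimap5. Without aLAG3 library 10 these were -0.34 and 0.25, its highest r was 0.29, to Gimap9, and Gimap1 with Gimap6 went from 0.087 to 0.51. A few libraries lay to 1 side of their group mean in most members, and are named after their values were seen. Untreated library 5 was highest in its group in 5 of 8 members, and aLAG3 library 6 was below its group mean in 0. The aLAG3 library 10 was lowest in its group in 5 of 8 members and highest in 1, Gimap3. The biological coefficient of variation (the relative spread between mice that the count model estimates) was 0.0861 to 0.122 for the members, with a median of 0.108, against a median of 0.104 over the 2391 genes in the same range of levels. The chi-square of the counts per degree of freedom, which is not smoothed across genes, had a median of 3.25 over the members and 1.64 over those genes, and ran from 0.726 (Gimap8) to 5.10 (Gimap3). This ratio grows with the count, and the genes were matched only on the range of levels.

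**Figure D4:**
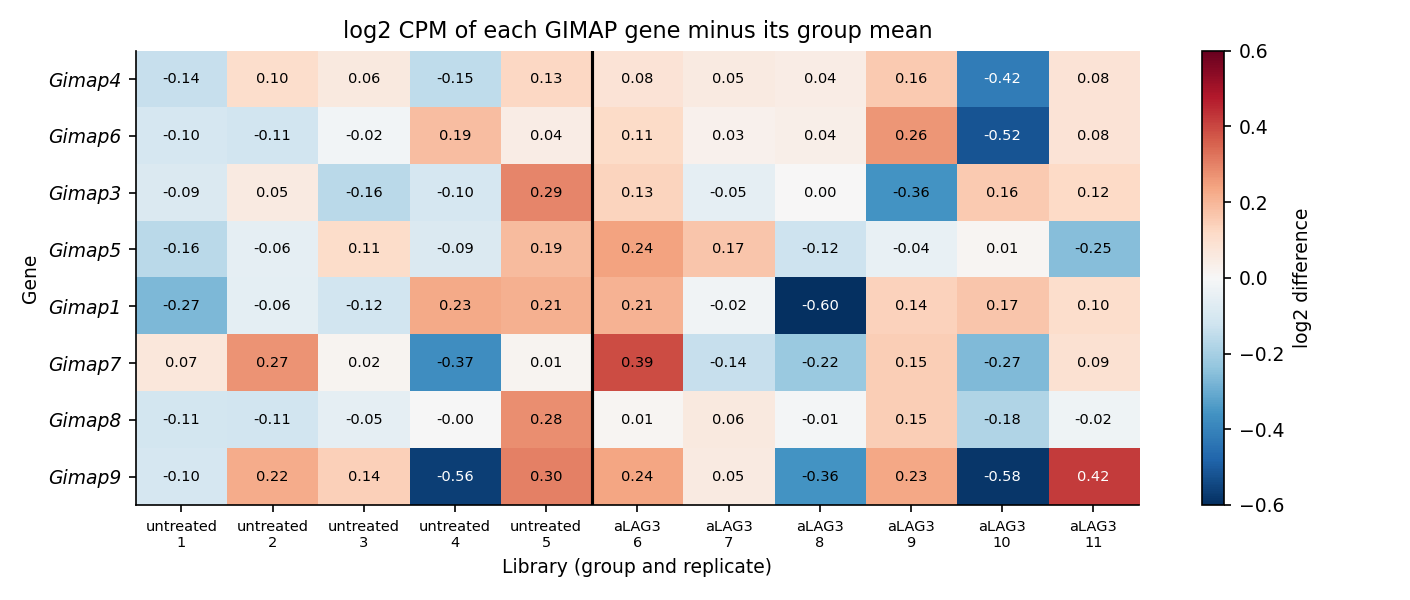
log2 CPM of each GIMAP gene minus the mean of its group (color and printed value), with genes in rows and the 11 libraries in columns, and a black line between the untreated and the aLAG3 group. aLAG3 library 10 is low in Gimap4, Gimap6 and Gimap9 but not in Gimap3, and untreated library 5 is above its group mean in all 8 genes.

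The genes whose log2 CPM over the 11 libraries was most like the log2 summed GIMAP level were Rpl24 (r = 0.90), a ribosomal protein gene, Setd6 (0.89), Psma3 (0.89), a proteasome subunit gene, Ociad1 (0.89) and Shcbp1 (0.88). Without aLAG3 library 10 the r of these genes was 0.77 to 0.89, and they were picked as the highest among all genes tested. The members themselves had an r with the sum from 0.21 (Gimap3) to 0.84 (Gimap4).

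No gene passed the test in the lists of pathways and T cell states set beside the GIMAP genes. The BCL-2 family, which includes proteins reported to bind GIMAPs, had 10 of its 17 members tested, with 4 higher, 6 lower and a median log2 fold change of -0.15. In the ATG8 and autophagy list 13 of 14 were tested, with 6 higher and 7 lower and a median of -0.0050, and in the list of quiescence and naive-state genes 14 of 16 were tested, with 7 higher and 7 lower and a median of 0.0093. The GSK3 and AKT axis, on which Gimap5 has been placed, had 8 of 10 tested, with 3 higher and 5 lower and a median of -0.12. Over all genes 48.9% were lower. In these 4 lists 0 genes had an unadjusted p under 0.05 in edgeR's quasi-likelihood test, against 3.73% of all genes. The genes with the most reads in each list were as follows. Bcl2a1b, a BCL-2 relative that restrains apoptosis, went from 442 ± 75.1 CPM (SD, n = 5) to 402 ± 40.2 CPM (SD, n = 6), or -0.15 on the log2 scale, and Bcl2a1d from 420 ± 23.9 to 381 ± 48.2 CPM, -0.16. These 2 genes are near-identical copies, so the split of reads between them is uncertain. Sqstm1, the autophagy receptor p62, had 727 ± 80.5 CPM in untreated and 696 ± 89.8 CPM in aLAG3 libraries, and Gabarap, an ATG8 protein, 277 ± 31.7 and 274 ± 13.5 CPM. Ccr7, the lymph node homing receptor of naive T cells, had 2148 ± 181 and 2142 ± 345 CPM, and Btg1, which restrains proliferation, 327 ± 63.9 and 356 ± 70.1 CPM. Akt2 and Pdpk1, kinases of the AKT pathway, had log2 fold changes of 0.083 and -0.069. Of the genes of the sort, the log2 fold change was -0.24 for Pdcd1 (standard error 0.097, unadjusted p = 0.0214), -0.17 for Slamf6 (standard error 0.13, unadjusted p = 0.184) and 0.019 for Cd8a (standard error 0.063, unadjusted p = 0.763), and the adjusted p from edgeR was 0.999 for each.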

How the data were processed

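Bulk RNA-seq libraries of 5 untreated and 6 aLAG3 mice were grouped by the treatment label, with replicate numbers 1 to 11 from the library names. The authors trimmed reads with cutadapt, mapped them with Bowtie2 to reference RNA of GRCm38, and deposited the raw counts per gene symbol. The submitters' processing notes give cutadapt 4.1 and Bowtie2 2.4.5, and the methods of the study give other versions of both. Counts were used as deposited.

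Genes were filtered with filterByExpr (a cutoff of 17.7 CPM, which is 10 counts in a library of median depth, reached in at least 5 libraries, with a total of at least 15 counts), which left 6949, and normalized by TMM. Groups were compared with edgeR 4.0.16 (glmQLFit and glmQLFTest, two-sided), with Benjamini-Hochberg adjustment over all genes and a threshold of 0.05. The standard error is the absolute log2 fold change over the square root of F; edgeR raises the p of some genes that vary less than Poisson counts, so for those p does not follow from F. log2 CPM values used a prior count of 2. R 4.3.3 was used, and DESeq2 1.42.0 as an alternative. The scripts were tested on simulated data.

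Coordinates, transcript lengths, coding sequences and shared 50-base stretches were read from GENCODE M21. It annotates GRCm38 but is not the release the authors mapped to, and it held 96.3% of the 32469 symbols. Protein sequences were not used here.

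The members and lists were chosen with earlier results of these data known. Named were the 8 members, the 5 genes most like their sum, the genes of the sort and Lag3, neighbours within 200 kb that passed the filter, and of each list up to 3 genes with an unadjusted p under 0.05, else the 2 of highest level. Of these genes 1, and of the marker genes 1, is not reported here. Alternatives covered the test, the scaling, the filter, the primer barcode, transcript length and leaving out each library.

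A count of 3 corresponds to 1.58 to 9.57 CPM by library. No molecular identifier entered the counts, so counting intervals cover counting error only. For the tumor excision after the antibody, the series' design text gives day 21 and the study's text an earlier day for this experiment, which was taken here.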

Additional observations from a re-analysis of the deposited data

Results flagged for a closer look

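In 3 sets of values 1 library lay far from the others of its group, by a gap test on the log2 values of each member, the summed level and the total count in each group (20 sets, where chance alone gives about 1 in 20). Gimap1 was at 132 CPM in aLAG3 library 8 (56 counts, exact 95% Poisson interval 99.8 to 172 CPM), while the other 5 aLAG3 libraries had 199 to 233 CPM. Gimap4 was at 406 CPM in aLAG3 library 10 (120 counts, 336 to 485 CPM), against 559 to 606 CPM in the others. Gimap6 was at 355 CPM in the same library (105 counts, 290 to 430 CPM), against 520 to 613 CPM. These intervals cover counting error only, and none of the 3 reached the values of the other aLAG3 libraries.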

How the results depend on the processing

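No paired analysis was possible because the untreated and aLAG3 groups share no replicate number. The second number in the library titles joins both groups only in untreated libraries 2 and 3 and aLAG3 library 10, and was not used as a block. The number of GIMAP members with an adjusted p under 0.05 was 0 under the 8 alternatives (RLE scaling, no composition factor, DESeq2, edgeR's likelihood ratio test, no filter, a filter in 3 libraries, primer barcode as a covariate, barcode 9 alone) and 0 without each of the 11 libraries. Over all genes it was 3 of 24024 without the filter (5830405F06Rik, Ccl1 and Plac8), 0 under the other 7 alternatives, and 0 to 2 when a library was left out, the 2 being C2cd4b and Plac8 without aLAG3 replicate 7. Genes with an unadjusted p under 0.05 numbered 163 with DESeq2, 1095 without the filter and 425 of 9071 with barcode 9 alone, against 259.

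The summed difference was -0.085 to -0.016 under 4 alternatives (-0.084 with RLE, -0.085 with no composition factor, -0.047 with barcode as a covariate, -0.016 with barcode 9 alone) and -0.11 to -0.039 without single libraries. The Gimap4 share of the levels per kb, 27.7%, was 24.3% without division by length and 45.7% among the 5 members with under 5% shared stretches, where fewer members enter the sum.

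The unadjusted p of Gimap4 was 0.0438 to 0.180 under the 8 alternatives, under 0.05 in 3 of them, and 0.0291 to 0.127 without single libraries, under 0.05 in 5 of 11, with its log2 fold change at -0.22 to -0.12. With barcode 9 alone the log2 fold change turned positive in Gimap1 (0.028), Gimap5 (0.021) and Gimap6 (0.12), so that 3 of 8 members were below 0, and without the filter in Gimap6 (0.0081). The cause was not tested. The log2 fold change of Gimap9 (0.17) was smaller in size than that of Gimap4 (-0.18) with all libraries and larger with barcode as a covariate (0.27 against -0.12), with barcode 9 alone (0.19 against -0.13) and without the filter (0.18 against -0.17). Without single libraries the log2 fold change ran from -0.18 to -0.020 in Gimap1, -0.089 to 0.044 in Gimap3, -0.099 to 0.0065 in Gimap5, -0.058 to 0.068 in Gimap6, -0.079 to 0.079 in Gimap7, -0.070 to 0.040 in Gimap8 and 0.089 to 0.24 in Gimap9. The number of members below 0, 6 with all libraries, was 2 without untreated replicate 5 and 7 without aLAG3 replicate 6.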
